A study of Homo sapiens with 6 samples.

Results

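The 10 genes described here encode cytokine receptors of blood cells: IL1R1, IL6R, IL6ST, CSF1R, CSF2RA, CSF2RB, CSF3R, IL10RA, IFNGR1 and IFNGR2. They were chosen by name, with earlier results of these data known. All 10 are among the 11363 genes of the deposited expression table. RNA sequencing was done on NOMO-1, an established cell line from a human acute myeloid leukaemia with monocytic features and a KMT2A::MLLT3 fusion. The groups were 3 libraries of parental cells (genotype WT) and 3 libraries of cells with a knockout of MSLN (genotype MSLN-KO), the gene of the surface glycoprotein mesothelin. The labels name no treatment, and they do not say whether the knockout cells were a clone or a pool or whether replicates were separate cultures, so the spread behind each p-value is that among these libraries and may be technical.

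Cytokine receptors carry outside signals into myeloid cells. Most of those considered here are built from a ligand-binding chain and a signalling chain: IL6R binds IL-6 and passes the signal through IL6ST, CSF2RA binds GM-CSF together with CSF2RB, and IFNGR1 and IFNGR2 together bind interferon gamma. These chains have no kinase of their own and act through JAK kinases and STAT transcription factors. CSF1R is instead a receptor tyrosine kinase, the receptor of macrophage colony-stimulating factor, and IL1R1 signals with IL1RAP through the MYD88 adaptor and IRAK kinases.

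The values are TMM-normalised CPM (read counts scaled to a common library size). The libraries held between 23665824 and 30804446 reads in the listed genes, if 1 step in the spacing of the values is taken as 1 read. The targeted gene MSLN had a mean of 127.3 ± 23.9 CPM (SD, n = 3, as for all group means here) in the WT libraries. Its mean in the knockout libraries was 45.95 ± 0.846 CPM, and each of them lay below all WT libraries. All 15 monocytic and myeloid markers considered were listed, and of 32 markers of T and NK, B, erythroid and megakaryocytic, epithelial and mesothelial, and stromal and endothelial cells, 5 were. Among the 15 myeloid markers 9 fell and 4 rose (median log2 change -0.37). CD14, the endotoxin co-receptor of monocytes, fell from 11.35 ± 1.97 to 4.213 ± 0.849 CPM, while ITGAX rose 1.4-fold. The summed level of the 15 was between 18700 and 19800 CPM in WT and between 9580 and 10300 CPM in MSLN-KO. Most of this sum and of its fall came from the most abundant marker gene, so the sum does not describe the markers as a set. Of the 5 other markers, NKG7, NCAM1 and CD79B fell, ITGA2B rose and KRT18 was not called, while the defining markers CD3D, HBB, EPCAM and COL1A1 are not listed. ITGA2B met the minimum of the deposited table, 4.9 CPM in 3 or more libraries, only through its MSLN-KO libraries and CD79B only through its WT libraries. The part of the marker shifts in the receptor results was not tested.

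Of the 10 receptor genes, 5 fell in MSLN-KO (IL1R1, IFNGR1, IFNGR2, CSF1R and IL6R), 1 rose (CSF2RA) and 4 were not called (IL6ST, CSF2RB, CSF3R and IL10RA). A gene was called at a limma adjusted p under 0.05, and the same test called 23.3% of all listed genes lower and 22.4% higher. The 6 called receptors were also those whose MSLN-KO libraries all lay outside the WT range, 5 below and 1 above it. Of all listed genes, 28.1% lay wholly below and 26.6% wholly above, 54.7% together. The median change of the 10 genes was -0.24 on the log2(CPM + 1) scale, beside 0.01 over all listed genes. As the genes were chosen with earlier results known, these shares and medians describe them and do not test them. The summed level of the 10 genes was between 1172 and 1217 CPM in the WT libraries and between 1008 and 1015 CPM in the MSLN-KO libraries. In a bulk sample, fewer cells with a transcript and less of it per cell cannot be told apart.

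**Figure D1:**
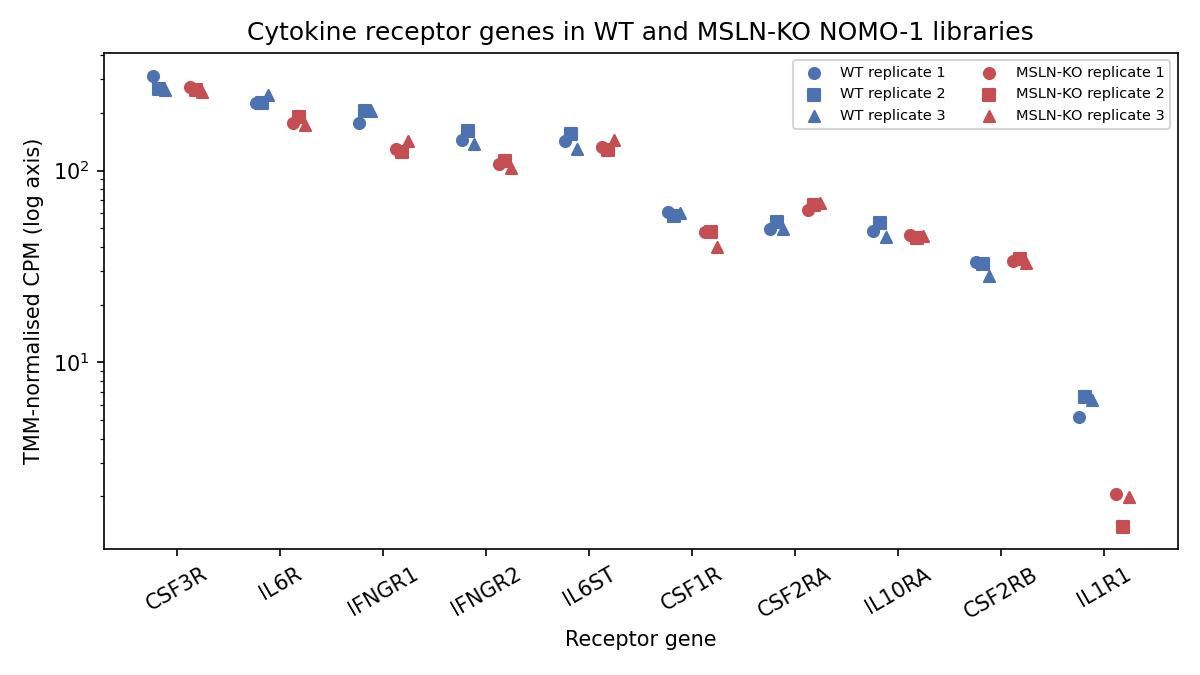
TMM-normalised CPM (log axis) of each receptor gene in the 6 libraries, with WT in blue and MSLN-KO in red and a marker shape for each replicate. IL1R1 is the lowest gene in every library, and CSF2RA is the only gene of the 10 whose MSLN-KO points all lie above its WT points.

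**Figure D2:**
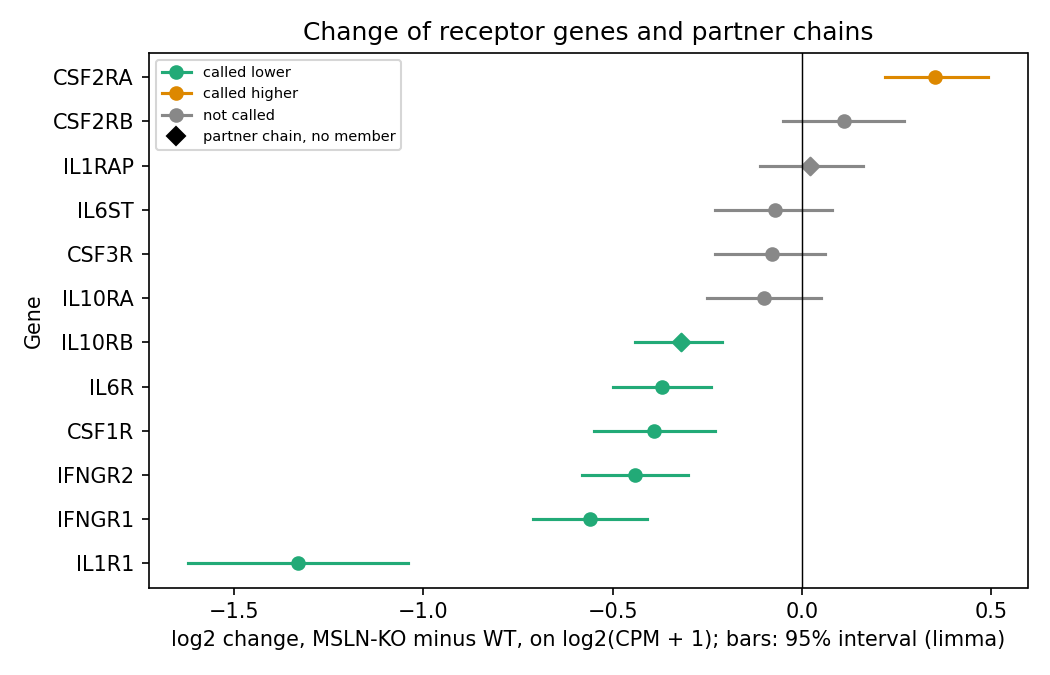
Log2 change (MSLN-KO minus WT, on log2(CPM + 1)) of the 10 receptor genes (circles) and of 2 partner chains that are not among them (diamonds), with the 95% interval from limma as bars. The intervals of IL6ST, CSF2RB, CSF3R, IL10RA and IL1RAP include 0.

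Both chains of the interferon gamma receptor fell. IFNGR1 (ENSG00000027697.16, GRCh38 chromosome 6, 137197484 to 137219449, minus strand), the ligand-binding chain, stood at 177.2, 205.3 and 205.2 CPM in the WT libraries and at 129.7, 125.2 and 143.0 CPM in the MSLN-KO libraries. The groups did not overlap, and the highest MSLN-KO library was below the lowest WT library. The mean fell from 195.9 ± 16.2 to 132.6 ± 9.26 CPM (1.48-fold lower, log2 change -0.56, SE 0.07, limma adjusted p = 3.2e-05). IFNGR2 (ENSG00000159128.16, chromosome 21, 33402896 to 33479348, plus strand), the chain that brings in JAK2, stood at 143.6, 159.8 and 137.9 CPM in WT and at 108.7, 112.7 and 102.5 CPM in MSLN-KO. Again every MSLN-KO library lay below every WT library. IFNGR2 fell 1.36-fold (log2 change -0.44, SE 0.06, limma adjusted p = 0.00011). TMEM50B overlaps IFNGR2 on the other strand and was not called, with means of 22.53 CPM (WT) and 22.37 CPM (MSLN-KO).

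The IFNGR1 and IFNGR2 genes lie on different chromosomes and fell together, so the 250 bases before a RefSeq transcription start of each (GRCh38.p14) are shown, at chr6:137219386-137219635 on the minus strand and chr21:33403163-33403412 on the plus strand. Capitals mark matches on either strand to GAGGAA, a core bound by the myeloid factor PU.1, to TTGCNNAA, a core of C/EBP sites, or to TTCNNNGAA, the STAT-type palindrome.
IFNGR1: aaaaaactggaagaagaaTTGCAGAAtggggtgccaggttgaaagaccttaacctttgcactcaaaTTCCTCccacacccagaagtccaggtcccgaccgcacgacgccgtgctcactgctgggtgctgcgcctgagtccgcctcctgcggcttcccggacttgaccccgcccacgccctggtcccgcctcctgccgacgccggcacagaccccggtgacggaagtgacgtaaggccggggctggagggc
IFNGR2: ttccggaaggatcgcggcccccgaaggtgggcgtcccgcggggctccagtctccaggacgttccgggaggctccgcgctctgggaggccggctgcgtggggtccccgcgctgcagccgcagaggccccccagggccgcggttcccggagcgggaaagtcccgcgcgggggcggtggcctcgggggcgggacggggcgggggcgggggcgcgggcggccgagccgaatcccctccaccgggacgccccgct
The IFNGR1 window holds 1 match to GAGGAA (on the reverse strand, as TTCCTC) and 1 to TTGCNNAA, and the IFNGR2 window holds no match to the 3 motifs. Of 35093 RefSeq windows of this length, 23.6% hold GAGGAA, 9.05% hold TTGCNNAA and 6.57% hold TTCNNNGAA. The GC content was 63.6% for IFNGR1 and 80.4% for IFNGR2. The table used has 2 starts for IFNGR1, of which the outermost is shown, and 1 for IFNGR2, which is not the outermost start of the gene. Among the receptor genes, IL6R, IL6ST, CSF1R, CSF2RA, CSF3R and IFNGR1 have a window at their outermost start. Of these, 3 hold GAGGAA there (IL6R, CSF2RA and IFNGR1), 2 hold TTGCNNAA (CSF3R and IFNGR1) and none holds TTCNNNGAA. IL1R1 and IL10RA have windows only at other starts, which were not searched, and CSF2RB has no window. A match is a description of the letters and not a measured binding site.

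Downstream of this receptor, the direction was mixed. Of 20 listed genes known to be induced by interferon gamma, 9 rose and 2 fell, with a median log2 change of 0.16. CIITA, among the rises, lost its call in 6 of the 14 alternative analyses. WARS1, the cytosolic tryptophanyl-tRNA synthetase, rose from 173.4 ± 23.3 to 524.1 ± 17.3 CPM (3.02-fold). The guanylate-binding protein genes GBP4 and GBP5 rose 2.74-fold and 1.95-fold, while GBP1 fell 1.40-fold. GBP4 met the 4.9 CPM minimum of the deposited table only through its MSLN-KO libraries. CXCL10, a chemokine that attracts T cells, fell from 10.31 ± 2.37 to 6.314 ± 0.561 CPM. WARS1 is also a known target of the amino acid stress response. The IFNG ligand gene is not listed.

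The IL-6 receptor changed in its ligand-binding chain. IL6R (ENSG00000160712.13, chromosome 1, 154405193 to 154469450, plus strand) stood at 226.1, 225.9 and 247.2 CPM in WT and at 177.1, 191.0 and 173.0 CPM in MSLN-KO. The groups did not overlap. The level fell 1.29-fold (log2 change -0.37, SE 0.06, limma adjusted p = 0.00024). IL6ST (ENSG00000134352.20, chromosome 5, 55935095 to 55994993, minus strand), the signalling chain that IL-6 shares with related cytokines, stood at 142.9, 155.4 and 129.6 CPM in WT and at 133.0, 128.4 and 144.3 CPM in MSLN-KO. Its libraries interleaved, and its log2 change of -0.07 had a 95% interval from -0.23 to 0.08 (limma adjusted p = 0.42).

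IL6R is released from cells by membrane proteases, so a list of 10 listed genes of receptor shedding and turnover was read beside it: 2 rose and 4 fell (median log2 change -0.08). ADAM10, a protease that cleaves surface proteins, fell from 273.7 ± 23.6 to 158.9 ± 1.61 CPM. The deubiquitinase gene USP8 fell 1.68-fold and STAM, an adaptor of endosomal sorting, fell 1.23-fold. RNF41, a ubiquitin ligase that acts on cytokine receptors, rose 1.91-fold. The smaller rise of STAM2 (1.15-fold) did not hold in 7 of the 14 alternative analyses. The number of rises was 1 when WT replicate 1 or 3 or MSLN-KO replicate 1 or 2 was left out. ADAM17, the main IL6R sheddase of activated cells, is named after its values were seen: it stood at 80.31 ± 5.82 and 79.62 ± 1.31 CPM (limma adjusted p = 0.91). ADAM10 and USP8 both lie on chromosome 15, where no receptor gene of the 10 lies.

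IL1R1, the signalling receptor of IL-1, was the lowest of the 10 and had the largest change. IL1R1 (ENSG00000115594.12, chromosome 2, 102064544 to 102179874, plus strand) stood at 5.22, 6.62 and 6.36 CPM in WT and at 2.06, 1.39 and 1.98 CPM in MSLN-KO. Inferred in the same way, these values correspond to between 128 and 171 reads in the WT libraries and between 37 and 63 in the MSLN-KO libraries. The groups were far apart. The mean fell from 6.067 ± 0.743 to 1.811 ± 0.363 CPM, to 29.8% of the WT level (3.35-fold lower). The log2 change of -1.33 (SE 0.13, limma adjusted p = 4.5e-06) was the largest in size of the 10. IL1R1 met the minimum of the deposited table, 4.9 CPM in 3 or more libraries, only through its WT libraries, so genes low in both groups are not there to set it against. On the log2(CPM + 1) scale the change of so low a gene is understated, and with a pseudocount of 5 CPM it was -0.70.

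The accessory chain IL1RAP, without which IL1R1 does not signal, averaged 92.41 ± 5.77 CPM in the WT libraries and 93.71 ± 4.56 CPM in the knockout libraries (log2 change 0.02, 95% interval -0.11 to 0.16). Of 19 listed adaptors, kinases and NF-kB genes below the receptor, 1 rose and 6 fell (median log2 change 0.02). IRAK4, the first kinase recruited to MYD88, rose from 39.84 ± 1.32 to 56.83 ± 5.43 CPM. IRAK3, an inhibitory member of the family, fell from 346.4 ± 35.5 to 264.9 ± 10.4 CPM, and NFKB1, a subunit gene of NF-kB, fell 1.31-fold. IRAK2 fell 1.35-fold, a call lost without WT replicate 3 (limma adjusted p = 0.071). The number of rises was 2 without MSLN-KO replicate 3 and 2 after rescaling columns to the same total. The ligand gene IL1B stood at 6.646 ± 0.753 and 6.213 ± 0.538 CPM, and IL1RN, the natural antagonist, at 29.26 ± 0.711 and 27.46 ± 1.51 CPM. Neither was called, and they are the only 2 of 17 ligand genes considered that are listed.

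The 2 genes whose profile over the 6 libraries lay nearest to that of IL1R1 were CMKLR1 and SH2D4A, at a root mean square distance of 0.06 and 0.1 in centred log2(CPM + 1). CMKLR1, the chemerin receptor gene, went from 7.701 ± 1.1 to 2.361 ± 0.394 CPM and SH2D4A from 12.17 ± 1.13 to 4.779 ± 0.355 CPM. Like IL1R1, CMKLR1 met the minimum of the deposited table only through its WT libraries.

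Of the colony-stimulating factor receptors, CSF1R fell. CSF1R (ENSG00000182578.14, chromosome 5, 150053291 to 150113372, minus strand) stood at 60.5, 57.9 and 60.1 CPM in WT and at 47.8, 47.9 and 40.1 CPM in MSLN-KO. The WT libraries lay close together and all above the MSLN-KO libraries. The level fell 1.31-fold (log2 change -0.39, SE 0.07, limma adjusted p = 0.00081). RPL7P1, a pseudogene inside CSF1R on the other strand, was not called (log2 change -0.14, limma adjusted p = 0.14). Of 15 listed adaptors and kinases below CSF1R, 3 rose and 1 fell (median log2 change 0.05), and 5 rose without WT replicate 2. The docking adaptor gene GAB2 rose 1.43-fold, the SRC-family kinase gene FGR rose 1.41-fold, and TYROBP, an adaptor of myeloid surface receptors, fell 1.27-fold.

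CSF3R, the receptor of G-CSF and the highest receptor gene by CPM, was not called. CSF3R (ENSG00000119535.18, chromosome 1, 36466043 to 36483278, minus strand) stood at 312.5, 266.0 and 263.7 CPM in WT and at 272.5, 263.7 and 256.7 CPM in MSLN-KO. WT replicate 1 was the highest library and the others overlapped. The log2 change was -0.08, with a 95% interval from -0.23 to 0.06 (limma adjusted p = 0.34).

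The GM-CSF receptor rose in its ligand-binding chain. CSF2RA (ENSG00000198223.18, chromosome X, 1268800 to 1310381, plus strand) stood at 49.5, 53.8 and 49.3 CPM in WT and at 62.6, 65.8 and 67.4 CPM in MSLN-KO. Every MSLN-KO library was above every WT library. CSF2RA rose 1.28-fold (log2 change 0.35, SE 0.06, limma adjusted p = 0.00044). CSF2RB (ENSG00000100368.15, chromosome 22, 36913628 to 36940449, plus strand), the signalling chain shared with the receptors of IL-3 and IL-5, stood at 33.2, 32.5 and 28.1 CPM in WT and at 33.64, 34.69 and 32.95 CPM in MSLN-KO. WT replicate 3 was the lowest library and the others overlapped. Its log2 change of 0.11 had a 95% interval from -0.05 to 0.27 (limma adjusted p = 0.25).

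CSF2RA lies in the pseudoautosomal region, which has a copy on the X and on the Y chromosome, and the nearest listed gene is IL3RA, the ligand-binding chain that pairs with the same CSF2RB. IL3RA stood at 16.7, 16.4 and 16.1 CPM in WT and at 29.9, 28.9 and 26.7 CPM in MSLN-KO, a 1.74-fold rise (log2 change 0.76, limma adjusted p = 3.2e-06). How the alignment treated the 2 copies of the region is not given in the sources used here. Of the 9 listed genes within 1 Mb of CSF2RA, 3 rose, 1 fell and 5 were not called. Over all listed genes, 22.4% were called higher and 23.3% lower. Such windows of other receptors also held called genes. Around CSF2RB, 9 of 25 rose and 3 fell, and around CSF1R, 7 of 21 rose and 5 fell. Named after their values were seen, the other two that rose were SLC25A6, a mitochondrial ADP and ATP carrier (log2 change 0.49), and ASMTL (0.33), and the gene that fell was P2RY8, a receptor of the G protein-coupled class (-0.29). The 4 genes from CSF2RA to ASMTL lie next to each other among listed genes and rose together, while the listed genes on either side of them were not called or fell. This run was picked out after values were seen, and how common such runs are was not tested.

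The 250 bases before the RefSeq starts of these neighbouring genes are shown because the genes rose together. They lie at chrX:1268564-1268813 and chrX:1336535-1336784, both on the plus strand, and capitals mark the same 3 motifs as above.
CSF2RA: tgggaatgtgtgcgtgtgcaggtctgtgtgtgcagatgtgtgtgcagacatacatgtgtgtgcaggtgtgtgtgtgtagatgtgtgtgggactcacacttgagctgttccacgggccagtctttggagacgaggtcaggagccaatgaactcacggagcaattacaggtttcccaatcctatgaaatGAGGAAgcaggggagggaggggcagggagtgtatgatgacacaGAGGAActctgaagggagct
IL3RA: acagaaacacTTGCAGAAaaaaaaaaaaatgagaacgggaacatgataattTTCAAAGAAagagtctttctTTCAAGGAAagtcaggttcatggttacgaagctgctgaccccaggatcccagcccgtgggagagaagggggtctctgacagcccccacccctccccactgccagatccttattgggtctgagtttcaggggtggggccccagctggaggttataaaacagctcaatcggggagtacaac
The CSF2RA window holds 2 matches to GAGGAA and none to the other motifs. The IL3RA window holds 1 match to TTGCNNAA and 2 to TTCNNNGAA, and none to GAGGAA. The windows thus share none of the 3 motifs. Among the transcription factors known to act at myeloid receptor genes, 5 of 13 listed rose and 5 fell (median log2 change 0.05). CEBPB rose 1.49-fold, the repressor gene GFI1 rose 1.52-fold and the immediate-early factor EGR1 rose 1.94-fold. EGR1 met the 4.9 CPM minimum of the deposited table only through its MSLN-KO libraries. CEBPE fell 1.62-fold and CEBPD fell 1.39-fold. GATA2, also among the falls, lost its call in 4 of the 14 alternatives. SPI1, which encodes PU.1 and is named after its values were seen, had means of 95.9 ± 4.19 CPM (WT) and 88.24 ± 12.9 CPM (MSLN-KO) and was not called. It was called lower without MSLN-KO replicate 2 (limma adjusted p = 0.039).

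**Figure D3:**
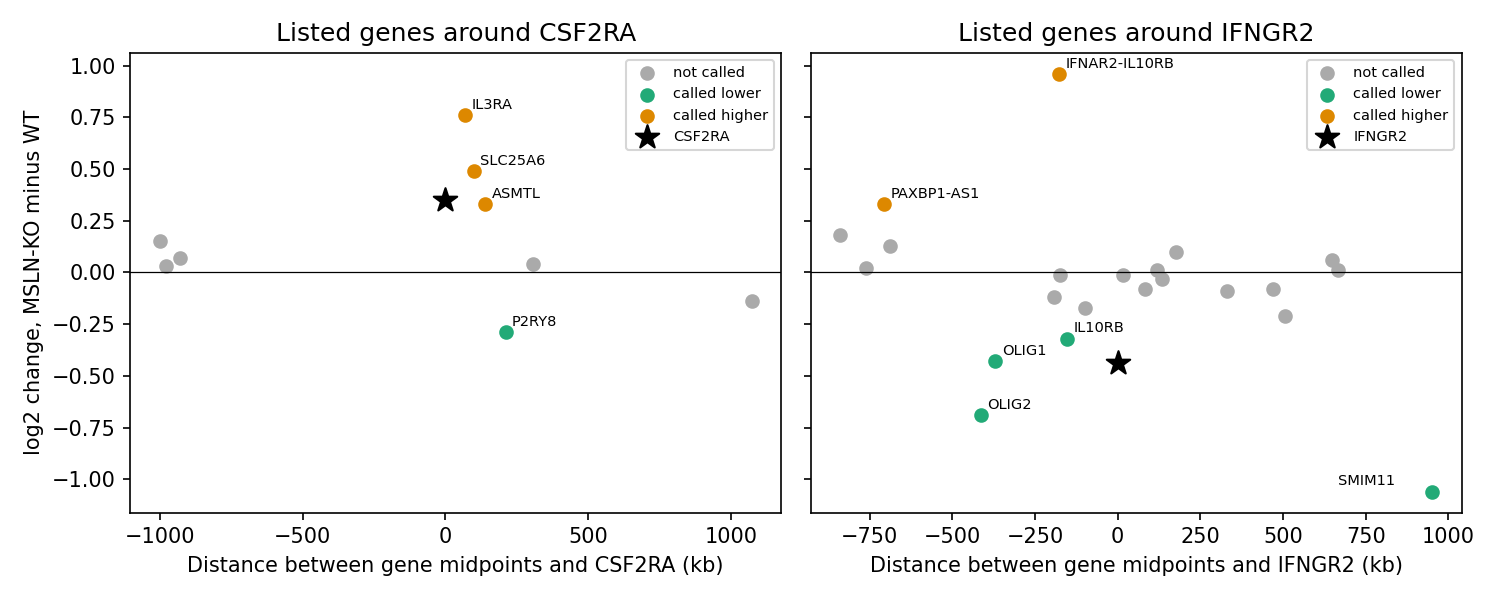
Log2 change (MSLN-KO minus WT, on log2(CPM + 1)) of listed genes within 1 Mb of CSF2RA and of IFNGR2 against the distance between gene midpoints in kb, with the receptor gene as a star. IL3RA, SLC25A6 and ASMTL lie above 0 beside CSF2RA, and around IFNGR2 the called genes lie on both sides of 0: IL10RB, OLIG1, OLIG2 and SMIM11 below, IFNAR2-IL10RB and PAXBP1-AS1 above.

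The genes with the profile nearest to that of CSF2RA were ANKRD11 and CCT8, at a root mean square distance of 0.017 and 0.018 over the 6 libraries. ANKRD11, a chromatin cofactor gene, rose from 76.37 ± 3.76 to 98.91 ± 3.26 CPM. CCT8, a subunit gene of the TRiC chaperonin, rose from 477.6 ± 20.6 to 619.0 ± 12.1 CPM. Neither lies on chromosome X.

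In the IL-10 receptor the ligand-binding chain was not called and the shared chain fell. IL10RA (ENSG00000110324.12, chromosome 11, 117986348 to 118003037, plus strand), which binds IL-10, stood at 48.2, 53.4 and 44.9 CPM in WT and at 46.1, 44.3 and 45.7 CPM in MSLN-KO. The groups overlapped, and the log2 change of -0.10 had a 95% interval from -0.25 to 0.05 (limma adjusted p = 0.25). IL10RB, the chain it shares with other receptors of the family, stood at 145.5, 154.4 and 152.3 CPM in WT and at 124.7, 119.4 and 116.8 CPM in MSLN-KO, a 1.25-fold fall (limma adjusted p = 0.0003). IL10RB lies in a cluster with IFNAR2, IFNAR1 and IFNGR2 on chromosome 21. A readthrough gene, IFNAR2-IL10RB, is listed beside it and rose from 7.757 ± 3.23 to 15.86 ± 4.75 CPM (limma adjusted p = 0.0039). Its groups overlapped, with WT replicate 1 at 11.5 CPM and MSLN-KO replicate 2 at 11.0 CPM. Reads could be shared between these rows, so the IL10RB and IFNAR2 values are uncertain. Of the 22 listed genes within 1 Mb of IFNGR2, 2 rose, 4 fell and 16 were not called. The shares over all listed genes were 22.4% higher and 23.3% lower. The interferon alpha and beta receptor genes IFNAR1 (74.58 ± 7.64 and 66.14 ± 2.34 CPM) and IFNAR2 (35.63 ± 7.39 and 32.26 ± 3.29 CPM) were not called, and IFNAR1 was called lower without WT replicate 1 (limma adjusted p = 0.024).

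The balance between chains was compared within each library as the log2 ratio of CPM per kb of exon, for 5 receptor pairs. Between 3 and 3 libraries the exact two-sided permutation test cannot give a p below 0.1, so no pair could pass. IL1R1 to IL1RAP had ratios of -3.36, -3.19 and -3.14 in WT and -4.82, -5.42 and -4.78 in MSLN-KO, a difference of -1.78 (exact permutation p = 0.1, 0.17 adjusted over the 5 pairs). The groups did not overlap. CSF2RA to CSF2RB differed by 0.25 and IL10RA to IL10RB by 0.22, without overlap and with the same p-values. The IL10RA to IL10RB ratio is uncertain, since reads of IL10RB could be shared with the readthrough gene. IL6R to IL6ST differed by -0.30 (exact permutation p = 0.2, adjusted 0.25) and IFNGR1 to IFNGR2 by -0.12 (exact permutation p = 0.4, adjusted 0.4), and their libraries overlapped. Without WT replicate 3 the IL6R to IL6ST difference was -0.19. The IFNGR1 to IFNGR2 difference was -0.04 without WT replicate 3, -0.05 without MSLN-KO replicate 2 and -0.21 without MSLN-KO replicate 3. In linear terms, CSF2RA stood at 2.13 times the CSF2RB level per kb in WT and at 2.52 times in MSLN-KO. With the longest transcript as length, an alternative added after the values were seen, these ratios were 3.46 and 4.10, while the difference between the groups does not depend on the length. IFNGR1 stood at 1.20 and 1.11 times the IFNGR2 level.

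**Figure D4:**
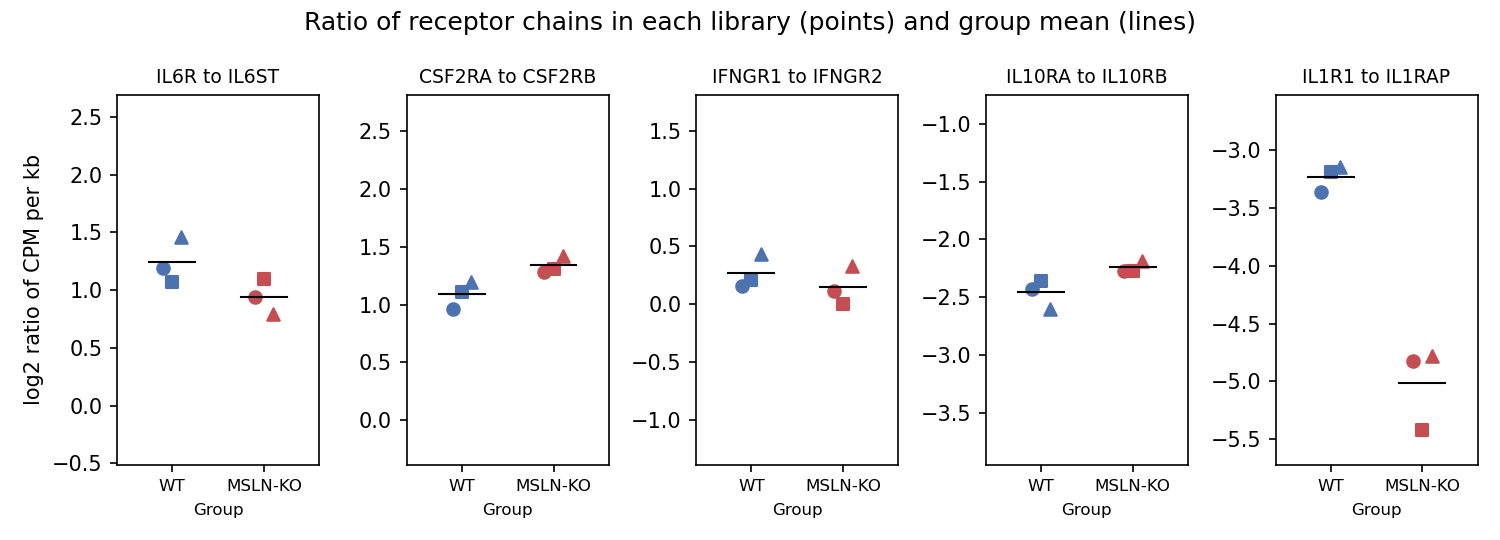
Log2 ratio of CPM per kb of exon of the first to the second chain in each library (points, shape by replicate number as in the plot of CPM), with group means as lines and the same axis span in each panel. The WT and MSLN-KO points are separate for CSF2RA to CSF2RB, IL10RA to IL10RB and IL1R1 to IL1RAP and overlap for the other pairs. The IL10RB values are uncertain because of the readthrough gene.

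Per kb of exon, the order of the receptor levels in WT was IFNGR1 (59.8 ± 4.94 CPM per kb), IFNGR2 (49.7 ± 3.84), IL6R (36.1 ± 1.9), CSF3R (33.3 ± 3.27), IL6ST (15.4 ± 1.39), CSF2RA (13.3 ± 0.664), CSF1R (11.5 ± 0.273), CSF2RB (6.25 ± 0.554), IL10RA (6.03 ± 0.531) and IL1R1 (0.857 ± 0.105). The neighbours IL6R and CSF3R, IL6ST and CSF2RA, and CSF2RB and IL10RA overlapped in WT and did not differ beyond their spread. In MSLN-KO the libraries of no neighbouring genes overlapped, but IFNGR1 and IFNGR2 nearly met. The lowest IFNGR1 library was at 38.2 CPM per kb and the highest IFNGR2 library at 38.1. CSF3R (31.4 ± 0.941 CPM per kb) stood above IL6R (27.9 ± 1.47) there, and CSF2RA (17.0 ± 0.631) above IL6ST (14.6 ± 0.881). IFNGR1 was higher per kb than 94.7% of listed genes in WT and 92.3% in MSLN-KO. With the longest transcript in place of all exons, 6 of the 10 genes took another rank in WT, while IFNGR1 stayed first, IFNGR2 next and IL1R1 last. By that length CSF3R already stood above IL6R in WT (46.2 and 39.4 CPM per kb), and CSF2RA above IL6ST (22.2 and 15.8). Neither pair then changed order between the groups. Ranks by that length are those of group means, and overlap between libraries was not assessed for it.

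Other cytokine receptors also moved in both directions. Of 40 chosen outside the 10 genes, 22 were listed, of which 6 rose and 9 fell (median log2 change -0.13). Without MSLN-KO replicate 1, 3 rose. The 22 include the partner chains IL1RAP and IL10RB, given above. IL31RA, a receptor gene near IL6ST that was not among the 40, rose (log2 change 0.40, limma adjusted p = 0.0001). PRLR, the prolactin receptor gene, fell from 508.8 ± 49.8 to 219.4 ± 16.5 CPM. IFNLR1, the interferon lambda chain, fell 1.70-fold and the stem cell factor receptor gene KIT fell 1.59-fold. FLT3, a receptor tyrosine kinase of progenitors, rose from 170.7 ± 20.5 to 232.9 ± 2.98 CPM. IL12RB1 rose 1.33-fold, but missed the threshold when WT replicate 2 (limma adjusted p = 0.066) or either of the first MSLN-KO replicates (0.052 and 0.054) was left out.

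Among the JAK kinases and STAT factors, 4 of 10 listed rose and 1 fell (median log2 change 0.06). STAT2 rose 1.35-fold and JAK1 1.20-fold. JAK3, the partner of the common gamma chain, fell 1.43-fold. Among the rises, the call of STAT5B (log2 change 0.15) was lost in 6 of the 14 alternatives. The number that fell was 2 without WT replicate 2, where STAT6 was also called (log2 change -0.19, limma adjusted p = 0.018).

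Feedback inhibitors of these receptors rose in 7 of 19 listed cases and fell in 2 (median log2 change 0.08). CISH, a STAT5-induced inhibitor of cytokine receptors, rose from 9.569 ± 0.69 to 17.91 ± 0.359 CPM. SOCS7 rose 1.47-fold and SH2B3, an adaptor that restrains JAK2, 1.30-fold. PIAS1, an inhibitor of STAT signalling encoded on chromosome 15, fell 1.62-fold. PTPN1, a phosphatase that acts on JAK kinases, fell 1.15-fold, a call lost without WT replicate 3 (limma adjusted p = 0.073) or MSLN-KO replicate 3 (0.053). Among the rises, the call of PTPN2 was lost in 5 of 14 alternatives and that of SOCS3 in 3 of 13. Of 14 listed genes known to be induced by STAT3 or STAT5, 6 rose and 3 fell (median log2 change 0.17). CCND2, which encodes cyclin D2, rose from 1.338 ± 0.563 to 46.02 ± 3.88 CPM and the kinase gene PIM1 from 37.37 ± 1.25 to 79.72 ± 4.67 CPM. CCND2 met the 4.9 CPM minimum of the deposited table only through its MSLN-KO libraries. IL4R fell 1.31-fold and FOSL2 1.22-fold. MCL1 fell 1.11-fold, but missed the threshold when WT replicate 1 (limma adjusted p = 0.063) or 2 (0.078) or MSLN-KO replicate 1 (0.08) or 2 (0.14) was left out, and in 7 of the 14 alternatives in all. CISH and SOCS3 stand in both of these lists.

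**Figure D5:**
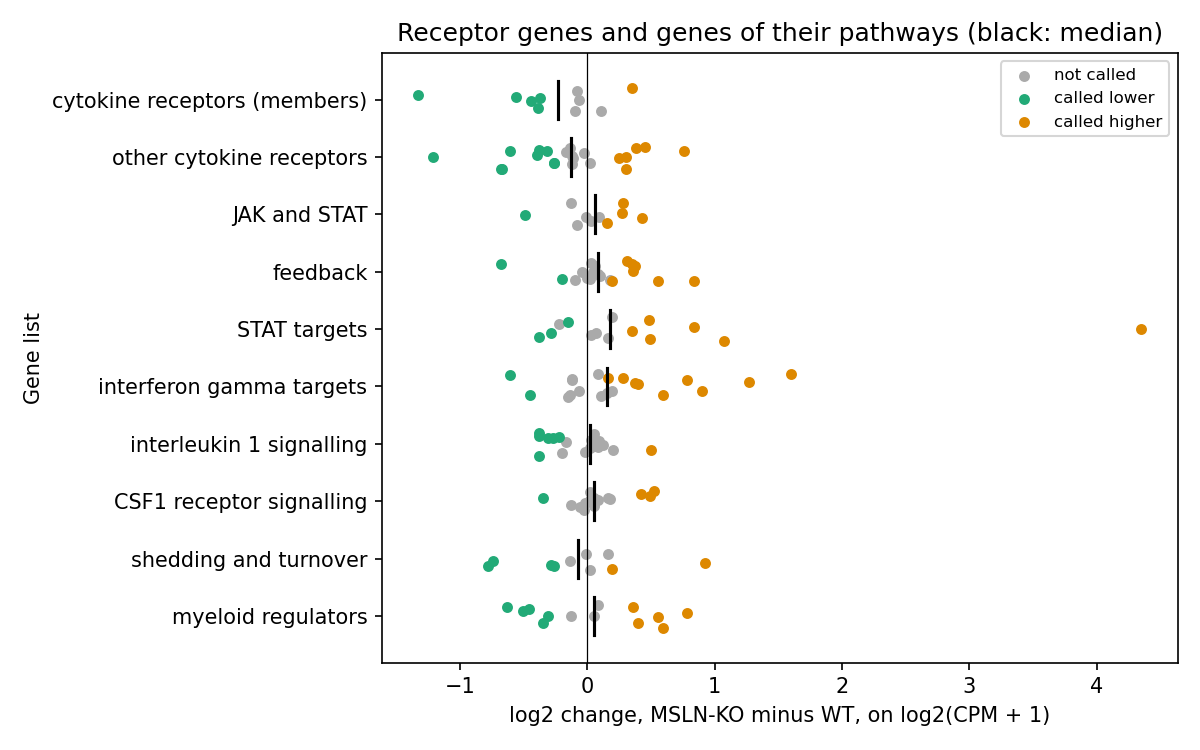
Log2 change (MSLN-KO minus WT, on log2(CPM + 1)) of every listed gene in the receptor group and in 9 lists of related genes, coloured by call, with the list median as a black line. The median of the 10 receptor genes (-0.24) lies to the left of the medians of the JAK and STAT, feedback and target lists, and CCND2 lies far to the right.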

How the data were processed

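Per the labels' protocols, total RNA was purified on columns and made into stranded libraries after ribosomal RNA was depleted. The tools named in the submitters' processing notes are STAR, featureCounts and edgeR, with build GRCh38 (hg38). Versions, annotation release and strand setting: not given in the sources used here. In the series' table the authors deposited TMM-normalised CPM, 1 column per library, with every listed gene at 4.9 CPM or more in 3 or more libraries. A gene below that level in all libraries of a group is thus listed only through the other group. Such genes also enter the list counts and medians. Symbols were matched for 11354 of 11363 genes. All values in a column were whole multiples of 1 step within 0.01, from which reads were inferred. Coordinates and exon lengths came from GENCODE 29 (GRCh38, 1-based) and promoter sequences from RefSeq (GRCh38.p14).

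MSLN-KO was compared with WT by limma 3.58.1 in R 4.3.3 (lmFit, eBayes with trend) on log2(CPM + 1) over all 6 libraries and all 11363 genes, with Benjamini-Hochberg adjustment over all genes, two-sided, threshold 0.05. The minimum mean of 0.5 CPM removed no gene. Folds are ratios of mean CPM. The fit was tested on simulated libraries. The members and gene lists were chosen with earlier results of these data known. Named are the 10 members, their partner chains, MSLN, up to 3 called rises and falls per list, and the 2 nearest profiles of the largest called rise and fall. Neighbouring genes and promoter windows were added after values were seen. A few genes that the rule would name are not reported here. Alternatives are given in the closing section.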

Additional observations from a re-analysis of the deposited data

How the results depend on the processing

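The calls of the 10 receptor genes kept their direction and side of the threshold in all alternatives that tested them: pseudocounts of 0.5 and 5 CPM, other filters, 2 other scalings, no variance trend, the replicate block, and omission of each library. A minimum mean of 5 CPM removed IL1R1. The planned edgeR and DESeq2 tests were not run, since the deposited values are CPM and the lowest values of the columns did not meet the standard set here for reads recovered from them. The read numbers given are therefore inferred, with 1 step taken as 1 read. Libraries with the same replicate number did not deviate together (r of 0.192, -0.169 and -0.0917 across genes), so the numbers were not taken as pairs. With the replicate block, 5 receptor genes were called lower and 1 higher, as without it. The difference in the IL1R1 to IL1RAP ratio was -1.35 with 1 CPM added to both chains, a shift that the added value itself causes in a low gene, and from -1.89 to -1.57 with a library left out. With the longest transcript as length, 6 genes changed rank. In the list of shedding and turnover, 1 gene rose with the replicate block or without the variance trend, against 2. Among feedback genes, 1 fell without WT replicate 3 or MSLN-KO replicate 3, against 2. All-gene calls ranged from 4092 to 5114 with a library left out, against 5197. Among the 10 receptor genes, IL1R1 had the fewest reads, 37 to 171 a library.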
